A study of Mus musculus with 2 samples.

Results

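Mesothelial cells form the single layer that covers the lung and lines the chest wall. In the neonatal mouse lung they were taken here as cluster 17 of the 23 clusters that the study's authors had assigned to single cells. Of the authors' clusters 15 and 17, it was the one with 282 cells and with more Msln (mesothelin, a surface glycoprotein of mesothelium). It held 4398 and 3685 CPM of Msln in the 2 libraries, against 245 and 263 CPM in cluster 15, CPM being UMIs of a gene per 1000000 UMIs of the cluster. The 282 cells were 169 of 13509 annotated cells in the control IgG library and 113 of 9454 in the 5E1 library. Lungs came from pups that carried Gli1CreERT2/+ and R26RtdT/+, an inducible Cre at 1 Gli1 allele with a tdTomato reporter, in both groups. All received tamoxifen at postnatal day 1. At day 3 the pups of one group received 5E1, an antibody that blocks Hedgehog ligands, and those of the other received control IgG. Lungs were taken at day 6, those of 3 pups were pooled per condition, and about 20000 cells were loaded on a 10x Genomics 3' droplet system. Each condition therefore has 1 library, with no replicate and no test. Intervals are at 95% and cover counting error only. Pairs of values are given as IgG then 5E1, a ratio is 5E1 over IgG, and a measured gene is one with at least 50 UMIs over both libraries. Higher and lower refer to these 2 libraries, in which pups, pools and treatment cannot be told apart.

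Mesothelium is an epithelium of mesodermal origin. Its cells keep keratins and junctions, secrete lubricating glycoproteins into the pleural space, and also make collagens, elastin and other matrix. Hedgehog ligands of the lung come mainly from epithelium and act on mesenchymal and mesothelial cells through the receptor Ptch1, which holds back the transducer Smo until ligand binds. Gli transcription factors then switch on targets, among them Gli1, Ptch1 itself and the decoy receptor Hhip.

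The libraries held 77436890 and 58890639 UMIs (transcript molecules counted) in annotated cells, and 184 barcode sequences occurred in both. Cluster 17 held 1881514 UMIs with IgG, 1439520 with 5E1. The median was 7806 UMIs and 2678 genes per cell in IgG and 8833 UMIs and 2849 genes in 5E1, with 2.21% and 2.31% mitochondrial UMIs. A doublet caller marked 13 of the 169 IgG cells and none of the 113 5E1 cells of the cluster. Its score cut-off was 0.1914 in IgG and 0.2797 in 5E1, so these counts are not a like comparison. Over the whole libraries it marked 5.34% and 2.33% of cells. Of the IgG cells, 166 had a UMI of Xist and none a UMI of 4 Y-linked genes, while of the 5E1 cells 47 had a Y-linked UMI and 37 had Xist alone. IgG mesothelial cells thus showed no Y-linked transcript, whereas the 5E1 cells held both kinds. With only the 37 5E1 cells that had Xist alone, the ratios of 44 named genes stayed within counting error of those over all cells, 23 lay outside it and 1 turned its sign. For the medians of gene lists these numbers were 16, 7 and 2. Only the larger of these shifts are given beside the results.

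The 4 markers given with the cell type set the cluster apart. Upk3b (uroplakin 3b, a membrane protein of urothelium and mesothelium) stood at 1843 and 2058 CPM, against 28.4 and 51.0 CPM in cluster 18, the next highest. Slurp1, a secreted protein of the Ly6 family, stood at 2564 and 1519 CPM, against 59.7 and 18.4 CPM in cluster 18. Lrrn4, a leucine-rich repeat membrane protein, stood at 337 and 352 CPM, against 5.64 and 18.4 CPM. The cells were clustered on such genes, so these values are a description and no test. In mm10 coordinates (GENCODE vM21) Msln lies at chr17:25748613-25754378, Upk3b at chr5:136038496-136046487, Slurp1 at chr15:74724318-74728034 and Lrrn4 at chr2:132868305-132880891.

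**Figure D1:**
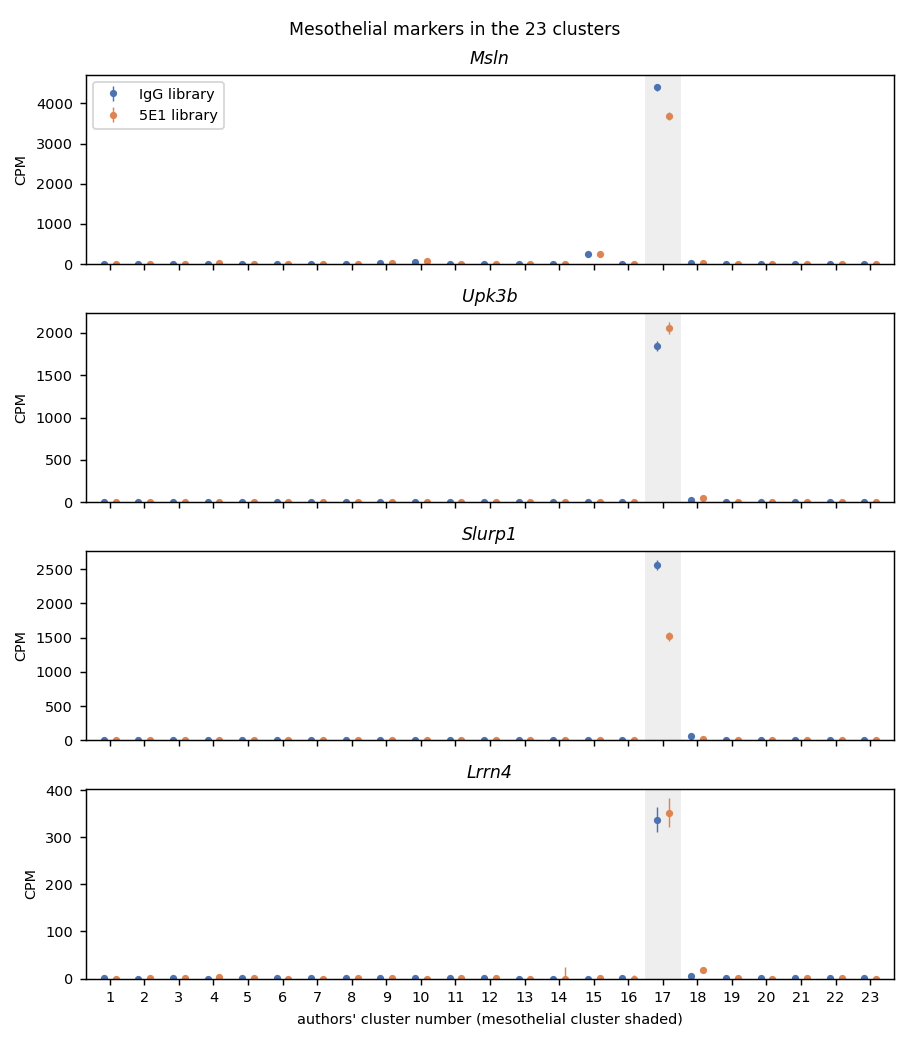
Level of 4 mesothelial markers (CPM, linear axis from 0) in each of the authors' 23 clusters, with 1 point per library and 95% Poisson bars. Cluster 17, shaded, stands above every other cluster in both libraries, and Slurp1 is lower in 5E1 (1519 CPM) than in IgG (2564 CPM).

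Cell by cell, however, the cluster held 2 populations. Of its 282 cells, 220 had a UMI of at least 2 of the 4 markers (127 IgG and 93 5E1 cells), 148 of them of all 4. In 59 cells (40 IgG, 19 5E1) none of the 4 was detected, and only 3 cells fell between. Marker-free cells made up 23.7% (17.5 to 30.8%) of the cluster in IgG and 16.8% (10.4 to 25.01%) in 5E1, intervals that overlap. Depth differed between the populations, at medians of 9695 and 10250 UMIs in marker-positive and 5710 and 6037 in marker-free cells of IgG and 5E1. Marker-positive cells had a median of 10329 CPM of the 4 markers together in IgG and 7191 in 5E1, and never less than 661 and 713 CPM.

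Summed together, the marker-free cells carried fibroblast transcripts instead. The 11 markers listed for adventitial fibroblasts, the fibroblasts around vessels and airways, summed to 17491 CPM in IgG and 18677 CPM in 5E1 marker-free cells. In marker-positive cells the same sum was 3300.03 and 4355 CPM, and in cluster 18, where the list was highest, 17729 and 17957 CPM. Single marker-free cells ranged from 732 to 47157 CPM, so some lay below the sums of marker-positive cells. Lum (lumican, a collagen-binding proteoglycan) stood at 457 and 443 CPM in marker-free cells against 0.617 and 0.765 in marker-positive cells. Gsn (gelsolin, which severs actin filaments) stood at 2998 and 4321 CPM in marker-free cells against 83.3 and 55.1 in marker-positive cells. Mfap4, a microfibril protein, stood at 5792 and 3764 CPM in marker-free cells against 174 and 58.1 in marker-positive cells, and Tcf21, a transcription factor of lung fibroblasts, at 331 and 379 CPM in marker-free cells against 9.87 and 1.53 in marker-positive cells. Across 6840 genes, the log2 CPM of marker-free cells had a Pearson correlation of 0.94 with cluster 18 and 0.79 with the marker-positive cells of their own cluster. It was also 0.89 with cluster 20 and 0.88 with cluster 19. Marker-positive cells themselves had a correlation of 0.83 with cluster 18, their closest cluster. The values below are for the whole cluster, as the authors drew it, and are repeated for the 220 marker-positive cells where that matters.

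**Figure D2:**
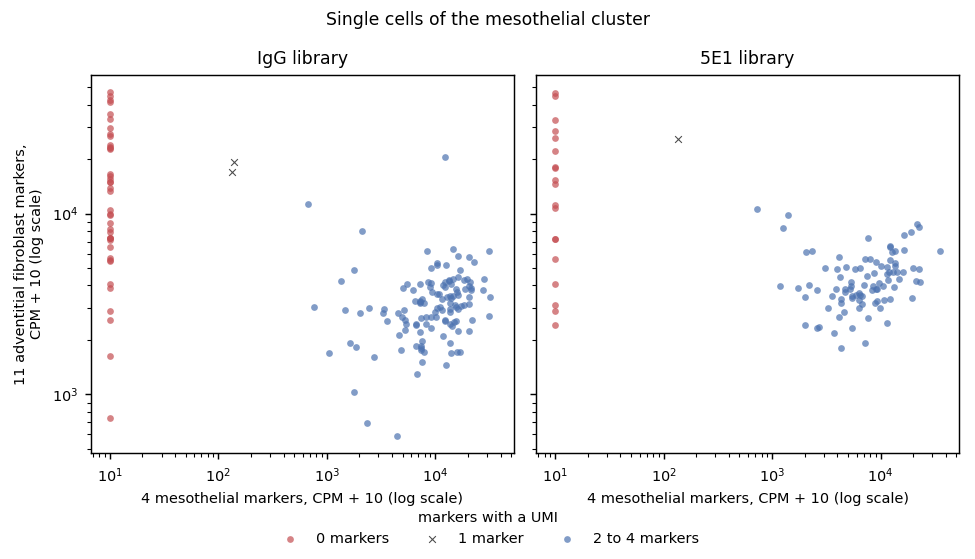
Each point is 1 cell of cluster 17, with the summed CPM of the 4 mesothelial markers on the x axis and that of 11 adventitial fibroblast markers on the y axis (10 added, both log scales). The 59 cells with no marker UMI lie at the left edge and range from 732 to 47157 CPM of adventitial markers. The 220 cells with 2 to 4 markers reach at most 20551 CPM.

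The share of mesothelial cells differed by less than the counting error. The cluster made up 1.25% (1.07 to 1.45%) of IgG and 1.20% (0.986 to 1.44%) of 5E1 cells, a ratio of 0.955 (0.746 to 1.22). Among non-immune cells alone it made up 1.77% and 1.84%, a ratio of 1.04 (0.813 to 1.33). Marker-positive cells made up 0.940% and 0.984% of all cells, a ratio of 1.05 (0.792 to 1.38). These intervals treat cell numbers as counts and hold no difference between pups. Outside cluster 17, at least 3 of the 4 markers were found in 13 of 13340 IgG and 11 of 9341 5E1 cells, of which 6 and 4 lay in cluster 18.

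Ranked by the level in the cluster over that in the next highest cluster, the 20 leading genes included 3 of the 4 markers and 17 others. Wt1, a transcription factor of mesothelium and kidney, stood at 210.5 and 242 CPM, and Gpm6a, a membrane glycoprotein, at 524 and 635 CPM. Folr1, a folate receptor, was highest in the cluster by the largest factor, 72.3, at 106 and 94.5 CPM. Muc16, the mucin known as CA125, stood at 119 and 150.1 CPM, and Cldn15, a claudin of tight junctions, at 305 and 427 CPM. Bnc1, a zinc finger factor, stood at 61.1 and 80.6 CPM, Krt14, a keratin, at 66.4 and 122 CPM, and the complement component C2 at 423 and 423 CPM. The others were Chst4, Lgals2, Angptl7, Cst9, Lgals7, Rpp25, Calcb, Fam180a and Sbsn, at between 61.7 and 699.5 CPM. For 16 of the 20 the next highest cluster was cluster 18.

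The marker-positive cells were not uniform. Upk3b was present in all 220 of them, at a median of 2187 CPM in IgG cells (lowest 321, highest 5364) and 2271 CPM in 5E1 cells (lowest 428, highest 6282). Slurp1 spread far more widely, at a median of 2102 CPM in IgG cells (lowest 0, highest 15675) and 576 CPM in 5E1 cells (lowest 0, highest 15829.6). It had a UMI in 100 of 127 IgG and 60 of 93 5E1 cells. Lypd2, a further Ly6 family gene, was at a median of 323 CPM in IgG cells (lowest 0, highest 4494) and 51.6 CPM in 5E1 cells (lowest 0, highest 1384). Eln (elastin) was at a median of 12979.8 CPM in IgG cells (lowest 0, highest 49756) and 10046 CPM in 5E1 cells (lowest 939, highest 55465), so nearly every mesothelial cell carried it.

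Slurp1 varied together with other genes from cell to cell. Genes were ranked by the weaker of their correlations in the 2 libraries, so a like value in both was set by the choice. Over 3934 genes found in at least 30% of marker-positive cells of both libraries, the 10 with the highest correlation with Slurp1 were Eln, Clic3, S100a6, Crip1, Nkain4, Igfbp5, Upk3b, Klf4, Lypd2 and Anxa8. Pearson r of log2 values with Slurp1 was 0.66 and 0.69 for Eln across the 127 IgG and 93 5E1 cells. It was 0.67 and 0.64 for Clic3, a chloride channel family protein, and 0.63 and 0.55 for Lypd2. At the other end stood, among others, Csrp2, Ccdc80, Mdk, Igfbp4, Sfrp2, Gas6, Apoe, Rpl6 and Ldhb. Here r was -0.66 and -0.52 for Csrp2, a LIM domain protein, -0.53 and -0.50 for Mdk (the growth factor midkine) and -0.47 and -0.53 for Sfrp2, a secreted Wnt antagonist. These are descriptions across cells of 1 library each, chosen after the values were seen, and r between Slurp1 and the log2 UMI total of the cell was 0.06 in IgG and 0.31 in 5E1.

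Between the libraries, most genes of the cluster differed little. Of 6912 genes whose UMIs came to 50 or more over both libraries, 57 (0.825%) were at least 2-fold higher in 5E1 and 86 (1.24%) at least 2-fold lower. The median log2 ratio (5E1 over IgG) of all of them was -0.02, with quartiles of -0.23 and 0.20. Of these 6912 genes 3289 were higher in 5E1 and 3623 lower. The counting interval of the ratio left out 1 for 17.3% of them, 556 genes above 1 and 640 below. Among marker-positive cells alone the counts past 2-fold were 60 (0.937%) and 72 (1.12%) of 6402 genes. The counts move with the minimum: over genes with at least 20 UMIs they were 213 and 283, and over those with at least 200 UMIs 11 and 16.

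Hedgehog targets were lower in 5E1 mesothelial cells, and both with enough UMIs to be counted were past 2-fold. Ptch1 stood at 77.1 CPM (65.0 to 90.7) with IgG and 25.7 CPM (18.1 to 35.4) with 5E1, a ratio of 0.334 (0.226 to 0.481). Hhip stood at 210.5 CPM (190.2 to 232) with IgG and 82.7 CPM (68.5 to 98.9) with 5E1, a ratio of 0.393 (0.317 to 0.483). Marker-positive cells alone gave ratios of 0.302 (0.194 to 0.456) and 0.386 (0.311 to 0.476). Gli1, of which 1 allele carries the Cre in all pups, gave 20 UMIs in IgG and 1 UMI in 5E1, a ratio of 0.0653 (0.00158 to 0.409). B cell-like cluster 4, which should lack these transcripts, held 11.7 and 8.15 CPM of Ptch1 and 16.0 and 0.959 CPM of Hhip. The 5E1 level of Ptch1 in mesothelial cells therefore stood above that background, as did Hhip.

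The share of cells with a target transcript was compared after thinning each cell to 1000 UMIs, since depth differed. At that depth the libraries could not be told apart by their intervals. Hhip had a UMI in 19 of 169 (11.2%) IgG cells (6.91 to 16.999%) and 6 of 113 (5.31%) 5E1 cells (1.97 to 11.2%), and Ptch1 in 9 of 169 (5.33%) and 5 of 113 (4.42%). At 2000 UMIs, the second depth tried, the Hhip intervals separated, with 46 of 166 (27.7%) (21.1 to 35.2%) and 12 of 111 (10.8%) (5.71 to 18.1%), while those of Ptch1 still overlapped, with 14 of 166 (8.43%) and 5 of 111 (4.50%). Without thinning, Hhip was found in 102 of 169 (60.4%) and 43 of 113 (38.1%), and Ptch1 in 74 of 169 (43.8%) and 27 of 113 (23.9%). B cell-like cells thinned to 1000 UMIs had Hhip in 9 of 375 (2.40%) and 0 of 426 (0%), and Ptch1 in 5 of 375 (1.33%) and 3 of 426 (0.704%). Median depths were 7806 and 8833 UMIs in mesothelial and 2498.5 and 3325 in B cell-like cells.

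Summed over the thinned cells, the log2 ratio of Ptch1 was -0.24 in place of -1.57 and that of Hhip -0.94 in place of -1.34. These sums held 17 UMIs of Ptch1 and 28 of Hhip over both libraries. Thinning is 1 random draw, and a separate draw over the 93 marker-positive 5E1 cells gave Hhip in 8 of them, more than the 6 drawn from the whole cluster. The sums without thinning held 145 and 37 UMIs of Ptch1 and 396 and 119 of Hhip.

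The 2 libraries also differed in these targets in other mesenchymal clusters. In cluster 19, a fibroblast cluster named here by number, Hhip stood at 216 and 9.31 CPM and Ptch1 at 97.9 and 21.5 CPM in IgG and 5E1. In the adventitial fibroblast-like cluster 18 Hhip stood at 110.5 and 52.7 CPM and Ptch1 at 80.2 and 33.3 CPM. The ratio of Hhip was 0.0430 (0.0272 to 0.0648) in cluster 19 and 0.477 (0.396 to 0.573) in cluster 18. The interval for mesothelial cells, 0.317 to 0.483, lies above that of cluster 19 and overlaps that of cluster 18. With 1 library per condition the difference between clusters was not tested over pups.

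**Figure D3:**
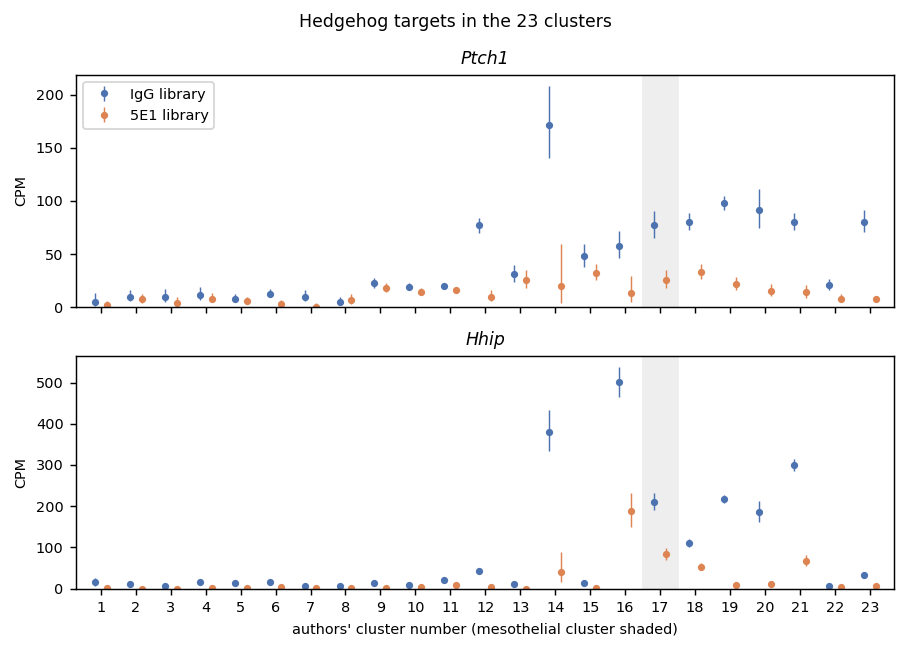
Level of the Hedgehog targets Ptch1 and Hhip (CPM, linear axis from 0) in the 23 clusters, 1 point per library with 95% Poisson bars, cluster 17 shaded. In cluster 17 Hhip is at 210.5 CPM in IgG and 82.7 CPM in 5E1, and Ptch1 at 77.1 and 25.7 CPM.

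Receptor components differed less. Smo, the transducer, stood at 125 and 139 CPM, a ratio of 1.11 (0.917 to 1.35), and the co-receptor Cdon at 69.1 and 79.9 CPM, 1.16 (0.892 to 1.498). Gas1, a further co-receptor, was higher in 5E1, at 407 and 595 CPM, a ratio of 1.46 (1.32 to 1.61). None of the 5 measured of 16 ligand and transducer genes was past 2-fold, and their median log2 ratio was 0.15. The proteoglycan Gpc3 stood at 1464 and 1399 CPM. Of 11 measured factors linked to Hedgehog in lung mesenchyme, 1 was past 2-fold, lower: the forkhead factor Foxf1 at 132 and 61.1 CPM, a ratio of 0.462 (0.358 to 0.591). With each cell thinned to 1000 UMIs, which left 32 UMIs of Foxf1, its log2 ratio was 0.050 and a UMI was found in 18 of 169 (10.7%) IgG and 13 of 113 (11.5%) 5E1 cells. Tbx2 stood at 88.8 and 56.3 CPM (ratio 0.634), Ccnd1 (cyclin D1) at 44.1 and 25.01 CPM (ratio 0.567), Osr1 at 97.8 and 115 CPM (ratio 1.17) and Tbx18 at 33.5 and 41.7 CPM (ratio 1.24). Over marker-positive cells it was 0.431 (0.331 to 0.556) for Foxf1, 0.396 (0.236 to 0.641) for Ccnd1 and 1.85 (1.40 to 2.46) for Osr1, a factor of lung and splanchnic mesoderm.

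The reporter transcript was abundant in these cells. It stood at 1738 and 1361 CPM, against 113 and 68.5 CPM in B cell-like cluster 4 and 1472 and 1567 CPM in cluster 18. In marker-positive cells the ratio was 0.725 (0.682 to 0.771) and in marker-free cells 1.33 (1.15 to 1.54). The reporter is under a separate locus once recombined, so its feature (tdTomWPREbGHpolyA in the files) marks cells in which Cre was active after tamoxifen and not current Gli1 expression.

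Among the 15 genes with the highest ratios, receptors, junction and secreted proteins were found. Cldn10, a claudin that forms paracellular ion pores, stood at 35.1 and 107 CPM, a ratio of 3.05 (2.27 to 4.13). It had a UMI in 39 of 169 IgG and 60 of 113 5E1 cells. Gabbr1, a GABA type B receptor subunit, stood at 119 and 322 CPM, 2.70 (2.30 to 3.18). Prss23, a serine protease, stood at 131 and 340.4 CPM, 2.60 (2.23 to 3.05). Cst9, a cystatin among the 20 genes that lead the cluster, stood at 61.7 and 168 CPM, 2.73 (2.18 to 3.43). It had a UMI in 30 IgG and 39 5E1 cells. Dmkn (dermokine, a secreted protein of epithelia) stood at 284 and 563 CPM, 1.98 (1.78 to 2.22). Met, the receptor of hepatocyte growth factor, stood at 31.4 and 60.4 CPM, 1.93 (1.37 to 2.73).

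The other 9 had ratios between 1.90 and 2.51. Camk2n1, an inhibitor of CaM kinase II, stood at 34.5 and 86.8 CPM, and Gng13, a G protein gamma subunit, at 25.5 and 63.2 CPM. Ackr3, a scavenging receptor of Cxcl12, stood at 34.0 and 70.9 CPM, and S100a4, a calcium-binding protein, at 31.4 and 61.1 CPM. Per1, Aifm2, Dfna5 and the metallothionein Mt2 had ratios of 2.09, 2.09, 1.99 and 1.90. In B cell-like cells S100a4 stood at 14.6 and 116 CPM and Tppp3 at 52.5 and 37.4 CPM. In the cluster Tppp3 stood at 60.6 and 122 CPM, a ratio of 2.02. Its log2 ratio was -0.48, however, when only the 37 5E1 cells with Xist and no Y-linked UMI were kept. With those cells Camk2n1 had a log2 ratio of 0.67 in place of 1.32 and Dmkn of 1.66 in place of 0.99. Thinned to 1000 UMIs, with 4 and 13 UMIs left, the log2 ratios of Aifm2 and Ackr3 were -0.64 and -0.50. In marker-positive cells all 15 had a ratio of at least 1.83.

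The 15 lowest ratios held the Hedgehog targets Ptch1 and Hhip beside secreted factors and a globin. Ngb (neuroglobin, an oxygen-binding protein best known from neurons) stood at 68.6 and 13.2 CPM, 5.19-fold (3.19 to 8.91) lower in 5E1, and all 54 IgG and 14 5E1 cells with a UMI were marker-positive. H19, a maternally expressed long noncoding RNA of the Igf2 locus, stood at 733 and 231 CPM, 3.17-fold (2.81 to 3.58) lower. Cib2, a calcium and integrin binding protein, stood at 117 and 32.0 CPM, a ratio of 0.272 (0.194 to 0.375). Wfdc1, a secreted whey acidic protein domain factor, stood at 209 and 67.4 CPM, 0.323 (0.256 to 0.404). Pltp, the phospholipid transfer protein, stood at 214 and 86.1 CPM, 0.402 (0.326 to 0.493). The LIM domain cofactor Lmcd1 stood at 52.1 and 12.5 CPM (ratio 0.240) and the matrix protease Adamts17 at 63.8 and 16.7 CPM (ratio 0.261). The interferon-induced GTPase Iigp1 stood at 61.7 and 13.9 CPM (ratio 0.225) and Lbh at 80.3 and 32.0 CPM (ratio 0.398). H2-Q1, a class I histocompatibility gene, stood at 57.4 and 22.2 CPM (ratio 0.387). B cell-like cells held 138 and 99.7 CPM of Lbh and 16.0 and 14.9 CPM of Lmcd1. The 5E1 levels of both genes in the cluster lay below these. Iigp1 stood at 27.7 and 7.67 CPM in B cell-like cells, lower in 5E1 there too. With the 37 Xist-alone 5E1 cells the log2 ratio was -0.90 for Wfdc1, -2.01 for Pltp and -2.15 for H2-Q1, against -1.63, -1.31 and -1.35 with all cells. Thinned to 1000 UMIs, with 14 UMIs left, H2-Q1 was at 0.19.

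The ratio of H19 lay on opposite sides of 1 in the 2 populations of the cluster. In marker-positive cells it stood at 803 and 200.4 CPM, a ratio of 0.2496 (0.218 to 0.285). In marker-free cells it stood at 249 and 572 CPM, a ratio of 2.30 (1.61 to 3.29), from 61 and 71 UMIs. Cluster 18 had 284 and 472 CPM, a ratio of 1.66 (1.54 to 1.80). H19 was uneven among marker-positive cells too. It had a UMI in 69 of 127 IgG and 33 of 93 5E1 cells, with up to 9979 CPM in a cell. With Slurp1 its correlation across cells was -0.43 and -0.34, below 0 in both libraries. With only the 37 Xist-alone 5E1 cells the log2 ratio of H19 in the cluster was -2.56, against -1.66 with all.

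**Figure D4:**
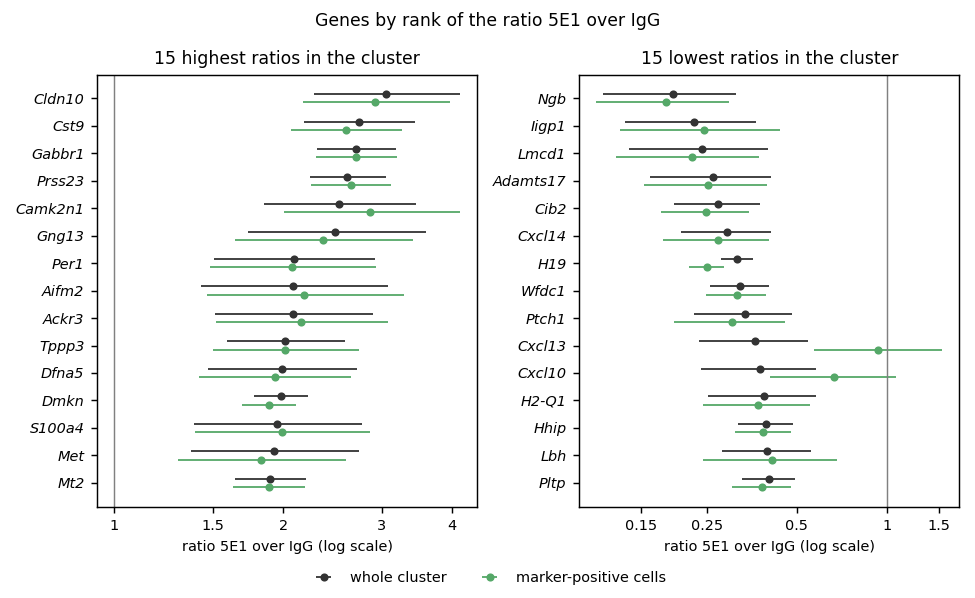
Ratio 5E1 over IgG (log axis) with 95% counting intervals for 15 top-ranked and 15 bottom-ranked genes of cluster 17, in the whole cluster (black) and in the 220 marker-positive cells (green). Cxcl13 and Cxcl10 are the 2 genes whose green interval reaches 1.

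Most measured cytokine and chemokine genes were lower in 5E1, in part through UMIs of single cells. Of 13 measured genes of the list, 9 were lower and 4 higher, at a median log2 ratio of -0.54. Past 2-fold, 4 were lower and 1 higher, against 1.24% and 0.825% of all measured genes. Of all 6912 measured genes, 3623 were lower and 3289 higher. In marker-positive cells 7 of 10 measured genes were lower, 2 of them past 2-fold, and the median was -0.39. Cxcl14, which attracts dendritic cells and monocytes, stood at 99.9 and 29.2 CPM, 0.292 (0.204 to 0.410), and in marker-positive cells at 0.273 (0.178 to 0.404). Cxcl2, which attracts neutrophils, gave 50 and 9 UMIs, 0.235 (0.102 to 0.483), but 25 of the 50 IgG UMIs lay in 1 cell, and without the top cell of each library the log2 ratio was -1.20 in place of -2.02. Cxcl13, which attracts B cells, stood at 59.5 and 21.5 CPM, but 63 of its 112 IgG UMIs lay in 1 cell and the ratio was 0.937 (0.568 to 1.53) in marker-positive cells. Of Cxcl10, an interferon-induced chemokine, 45 of 97 IgG UMIs lay in 1 marker-free cell, and the ratio was 0.377 (0.238 to 0.580) in the cluster and 0.668 (0.406 to 1.08) in marker-positive cells. Csf1, a growth factor of macrophages, stood at 133 and 91.7 CPM (ratio 0.687), and Kitl, the ligand of Kit, at 103 and 78.5 CPM (ratio 0.765). Higher were the alarmin Il33 at 74.4 and 99.3 CPM (ratio 1.34) and the prostacyclin synthase Ptgis at 411 and 526 CPM (ratio 1.28). Cxcl1 gave 23 and 38 UMIs, 2.16 (1.25 to 3.80), and was the gene of the list past 2-fold higher. Of its 38 5E1 UMIs 19 lay in 1 cell, and without the top cell of each library its log2 ratio was 0.63, no longer past 2-fold.

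Genes of mesothelial identity differed little. Of 18 measured members, none was past 2-fold, 14 were higher and 4 lower, and the median log2 ratio was 0.13. Keratin 19 (Krt19) stood at 959 and 1191 CPM (ratio 1.24), Krt7 at 706 and 659 CPM (ratio 0.934), Rspo1, which boosts Wnt signalling, at 801 and 863 CPM (ratio 1.08) and Aldh1a2, which makes retinoic acid, at 525 and 447 CPM (ratio 0.851). Pkhd1l1 stood at 46.8 and 79.2 CPM (ratio 1.69). In marker-positive cells 11 were higher and 7 lower, and the median was 0.07. Of the 4 markers, Slurp1 had a ratio of 0.592 (0.563 to 0.623), Msln of 0.838 (0.809 to 0.867), Upk3b of 1.12 (1.06 to 1.17) and Lrrn4 of 1.04 (0.925 to 1.17). Junction genes had a median of 0.16 over 14 members, none past 2-fold, with the cadherin Cdh3 at 40.4 and 68.1 CPM (ratio 1.69) and Cldn3 at 34.5 and 54.2 CPM (ratio 1.57).

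Matrix genes were abundant and differed in both directions. Of 26 interstitial matrix genes, all measured, 1 was past 2-fold, 9 were higher and 17 lower. Eln was the most abundant gene of the list, at 14173 and 12506 CPM (ratio 0.882), and Sparc, a collagen-binding matricellular protein, stood at 12706 and 12058 CPM (ratio 0.949). Mfap4 stood at 938 and 413 CPM, 0.440 (0.400 to 0.483), and at 0.334 (0.256 to 0.432) in marker-positive cells, where its level was 174 and 58.1 CPM. Fbln2 (fibulin 2, of elastic fibres and basement membranes) was higher, at 114 and 213 CPM, 1.87 (1.56 to 2.23), and past 2-fold in marker-positive cells at 2.01 (1.66 to 2.42). Dcn (decorin) stood at 1329 and 1959 CPM (ratio 1.47) and Col3a1 at 4652 and 5956 CPM (ratio 1.28), while Col6a1 stood at 865 and 630.1 CPM (ratio 0.728), Col1a2 at 2797 and 2199 CPM (ratio 0.786) and Bgn (biglycan) at 1295 and 973 CPM (ratio 0.751).

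The basement membrane list was split by chain. The collagen IV chains Col4a1 and Col4a2 were lower, at 170.1 and 101 CPM, 0.596 (0.487 to 0.728), and 256 and 167 CPM, 0.654 (0.558 to 0.764). Col4a3 and Col4a4 were also below 1, at 0.677 and 0.816, whereas Col4a5 was at 1.48 (1.16 to 1.90) and Col4a6, with 17 and 31 UMIs and so not measured by that minimum, at 2.38 (1.28 to 4.59). Among laminins, Lama5 stood at 171 and 125 CPM (ratio 0.733), Lamb1 at 72.8 and 46.5 CPM (ratio 0.639) and Lamc1 at 261 and 197 CPM (ratio 0.754), and Lama4 at 28.2 and 52.1 CPM (ratio 1.85). Nid2 had a ratio of 1.49 (1.14 to 1.96). Of 16 measured members none was past 2-fold in the cluster, and the median of -0.15 became 0.01 in marker-positive cells, where Lama4 was past 2-fold at 2.35.

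Several secreted growth factors were lower, though their lists as a whole did not all lean that way. Median log2 ratios were 0.02 for TGF-beta and YAP (8 genes higher, 8 lower) and 0.03 for Wnt (5 higher, 4 lower). They were -0.21 for BMP (4 higher, 6 lower) and -0.28 for FGF (1 higher, 6 lower). In marker-positive cells the TGF-beta and YAP median was -0.20. Tgfb2 stood at 139 and 78.5 CPM, 0.564 (0.448 to 0.705), and Tgfb3 at 151 and 82.0 CPM, 0.543 (0.434 to 0.675). Of 16 measured TGF-beta and YAP genes 2 were past 2-fold lower, the latent TGF-beta binding protein Ltbp2 at 0.365 (0.222 to 0.579) and Tgfbi at 0.498 (0.362 to 0.676). Cyr61, a target of YAP, stood at 171 and 114 CPM (ratio 0.666), and at 0.418 in marker-positive cells. Bmp7 was 1 of 10 measured BMP genes past 2-fold, at 58.5 and 27.1 CPM, 0.463 (0.313 to 0.673), and Id1, a BMP response gene, had a ratio of 0.716 (0.627 to 0.816). Wnt2 was 1 of 9 measured Wnt genes past 2-fold, at 35.6 and 16.7 CPM, 0.468 (0.281 to 0.756), and Sfrp2 was higher at 1070.4 and 1573 CPM, 1.47 (1.38 to 1.56). Of the FGF list, which signals to epithelium and mesenchyme, none of 7 measured genes was past 2-fold. Fgf9, made by mesothelium and epithelium, stood at 56.3 and 41.7 CPM (ratio 0.740), Fgf18 at 84.0 and 61.8 CPM (ratio 0.736) and the feedback gene Spry2 at 26.6 and 45.2 CPM (ratio 1.70). Pdgfa, the ligand of myofibroblast precursors, stood at 155 and 179 CPM (ratio 1.16). Igf1 stood at 169 and 139 CPM (ratio 0.822), Igf2 at 161 and 147 CPM (ratio 0.914), and Igfbp5, the most abundant IGF binding protein here, at 4331 and 4772 CPM (ratio 1.10). Thinned to 1000 UMIs, the log2 ratio was 0.29 for Tgfb2, 0.050 for Ltbp2 and 0.18 for Igf1, from 29, 10 and 42 UMIs. With the 37 Xist-alone 5E1 cells it was -2.48 for Ltbp2 and -1.01 for Igf1. Cdkn1c, an imprinted cell cycle inhibitor, stood at 558 and 343 CPM, 0.616 (0.552 to 0.686).

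Surface and host defence genes stood out by level rather than by difference. Aqp1, a water channel, stood at 1470.1 and 1503 CPM (ratio 1.02), Rarres2 (chemerin) at 4502 and 5187 CPM (ratio 1.15) and Upk1b at 761 and 759 CPM (ratio 0.997). The complement component C3 was higher in 5E1, at 1289 and 1836 CPM, 1.42 (1.35 to 1.51). Of 17 measured complement and coagulation genes 1 was past 2-fold, lower: the protease inhibitor Serpine2 at 0.449 (0.314 to 0.632), which was 0.649 (0.369 to 1.11) in marker-positive cells. All but 1 of 7 measured class I antigen presentation genes were lower, as were 3623 of all 6912 measured genes. Their median was -0.17, with H2-K1 at 176 and 147 CPM (ratio 0.831) and B2m at 727 and 647 CPM (ratio 0.890). Of 11 interferon genes, 2 were past 2-fold lower, Iigp1 and Isg15 (37.2 and 12.5 CPM), while Oasl2 stood at 103 and 159.8 CPM (ratio 1.56). The heat shock gene Hspa1a was at 112 and 47.9 CPM, 0.427 (0.321 to 0.563), 1 of 11 past 2-fold.

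Contractile transcripts were few. Acta2 (smooth muscle actin) stood at 147 and 60.4 CPM, 0.412 (0.320 to 0.526), and Tagln (transgelin) at 61.7 and 21.5 CPM, 0.349 (0.227 to 0.523). Cluster 16, where the smooth muscle list was highest, held 13822 CPM of Acta2 with IgG. A single IgG cell held 94 of the 276 Acta2 UMIs. Without the 13 called doublets, all of them IgG cells, the log2 ratio of Acta2 went from -1.27 to -0.55. That of Tagln went from -1.50 to -0.63. Without the top cell of each library Acta2 was at -0.99, and Tagln thinned to 1000 UMIs, with 13 UMIs left, at 0.37. In marker-positive cells the ratio of Acta2 was 0.245 (0.169 to 0.347) and in marker-free cells 1.16 (0.779 to 1.70). The list of 10 measured genes of epithelial to mesenchymal transition held 9 below 1, 2 of them past 2-fold, at a median of -0.31. Those 2 were Acta2 and Tagln, given above, so their count, against 1.24% of all measured genes past 2-fold lower, is no separate result. Vim (vimentin) stood at 1394 and 1251 CPM (ratio 0.898) and Fn1 (fibronectin) at 153 and 116 CPM (ratio 0.761). In marker-positive cells 3 of 9 measured genes, Acta2 among them, were past 2-fold lower, at a median of -0.45. Of all genes measured in those cells 1.12% were past 2-fold lower. Fn1 stood at 77.1 and 44.4 CPM in marker-positive cells and at 645 and 863 CPM in marker-free cells. The summed smooth muscle list stood at 559 and 250.1 CPM in the cluster, against 401 and 174 CPM in B cell-like cells. All 9 of its genes were detected in both libraries. Of 7 measured alveolar myofibroblast markers 4 were past 2-fold lower, at a median of -0.9996, against 1.24% of all measured genes. Hhip, Acta2 and Tgfbi, given above, are among these, so the count is no separate result. This list summed to 853 and 552 CPM in the cluster, against 342 and 198 CPM in B cell-like cells.

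Proliferation genes had a list median of 0.84, all 9 measured members of the G2 and M phase list being higher in 5E1 and 4 past 2-fold. Among all 6912 measured genes, 3289 were higher and 0.825% were past 2-fold higher. Top2a, which untangles DNA at mitosis, gave 20 and 43 UMIs, a ratio of 2.81 (1.62 to 5.04), and Cdk1 gave 39 and 65 UMIs, 2.18 (1.44 to 3.33). Without the top cell of each library the log2 ratio of Cdk1 was 0.88, no longer past 2-fold. The UMIs came from few cells. At least 5 UMIs of the list were found in 6 of 169 IgG cells (3.55%, 1.31 to 7.57%) and 10 of 113 5E1 cells (8.85%, 4.33 to 15.7%), intervals that overlap. A single IgG cell held 179 of 447 UMIs of the list and a single 5E1 cell 167 of 679. With the 37 Xist-alone 5E1 cells, 3 genes were left with 50 UMIs and their median was -1.52, so the direction rests on the 5E1 cells outside that set. S phase genes had a median of 0.30 over 7 members.

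Immediate early and glucocorticoid responsive genes were mostly higher in 5E1. Among all 6912 measured genes, 3289 were higher and 0.825% were past 2-fold higher. Of 17 measured immediate early genes, the first to be transcribed after a stimulus, 15 were higher and none past 2-fold, at a median of 0.28. Egr1 stood at 365 and 528 CPM (ratio 1.45), Jund at 985 and 1419 CPM (ratio 1.44) and Fos at 891 and 1093 CPM (ratio 1.23). Of 8 glucocorticoid responsive genes 7 were higher and 1, Per1, past 2-fold, at a median of 0.43. The metallothionein Mt1 stood at 462 and 852 CPM, 1.84 (1.69 to 2.01), and Mt2 at 172 and 326 CPM, 1.90 (1.64 to 2.19).

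With the 37 Xist-alone 5E1 cells the list medians were 0.31 for mesothelial identity, -0.66 for epithelial to mesenchymal transition, -0.62 for FGF, -0.28 for TGF-beta and YAP, -0.35 for interstitial matrix and -0.38 for basement membrane. Interferon response was at -0.047 and heat shock at 0.052 with these cells.

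**Figure D5:**
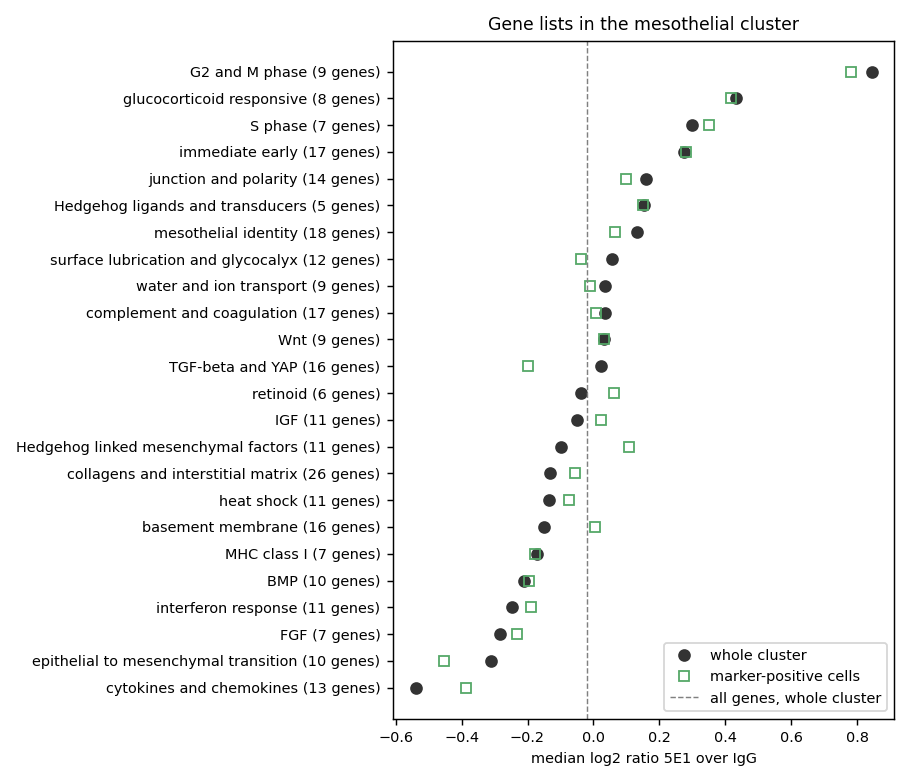
Median log2 ratio 5E1 over IgG of 24 gene lists, the core Hedgehog targets not among them, in cluster 17 (filled) and in marker-positive cells (open squares), with the number of measured genes per list. The dashed line is the median of all genes, -0.02, and the medians run from -0.54 for cytokines and chemokines to 0.84 for G2 and M phase.

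Transcripts of other lung cells were present throughout. Scgb1a1, the secretoglobin of club cells, had a UMI in all 169 and 113 cells of the cluster, and club markers summed to 1748 and 5341 CPM in marker-positive cells. B cell-like cells held 3229 and 1626 CPM of the same list. The higher 5E1 sum lay in 1 cell of 39430 UMIs, which held 4911 of the 6473 Scgb1a1 UMIs beside 58 UMIs of Msln. A different 5E1 cell of 30530 UMIs held 1490 of 1906 UMIs of the surfactant gene Sftpc beside 56 of Msln. Neither cell was marked by the doublet caller, whose score cut-off was 0.2797 in 5E1 against 0.1914 in IgG. Without both, the log2 ratio was -1.50 for Ptch1 and -1.37 for Hhip, near the values of all cells. Markers of lymphocytes, neutrophils, macrophages and endothelium summed to at most 347 CPM per list in the cluster.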

How the data were processed

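Single-cell RNA-seq was measured in 2 libraries of day 6 mouse lung, 1 per condition. Per the submitters' processing notes, Cell Ranger 3.1.1 and mm10 were used, and UMI counts per gene and cell were deposited by the authors without normalization. The authors' cluster numbers were taken as deposited, and barcodes they left out were not used in comparisons. Counts of features with 1 symbol were summed. Members and gene lists were chosen with earlier results of these data known. UMIs were summed over the cluster in each library and scaled to CPM. Ratios carry exact conditional binomial, levels exact Poisson and shares exact Clopper-Pearson intervals at 95%. Log2 ratios had 0.5 UMI added to each sum. Genes with at least 50 UMIs were counted as past 2-fold. Named were the 4 markers and list members, the 20 genes highest over the next cluster, and the 15 highest and 15 lowest ratios (at least 100 UMIs, 50 CPM in 1 library). Doublets were called with Scrublet in scanpy 1.11.5 and kept in the main values. The ratio calculation was tested on simulated data. Python 3.11.15, numpy 2.4.6, scipy 1.17.1 and pandas 2.3.3 were used. Gene positions came from GENCODE vM21. Alternatives without 2 epithelial-rich cells and without each gene's top cell, and the share of marker-positive cells, were chosen after seeing the data. Some genes among the list members and ranked genes are not reported here.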

Additional observations from a re-analysis of the deposited data

Results flagged for a closer look

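Of the genes with the 15 highest and 15 lowest mesothelial ratios (5E1 over IgG), 4 were opposite in cluster 18, 19 or 21. For these, both ratios lay on opposite sides of 1 by at least 1.5-fold, each with an interval that leaves out 1. The genes compared were chosen for their extreme mesothelial ratios, so 4 is not a count over all measured genes. H19 had a ratio of 0.315 (0.279 to 0.356) in mesothelial cells, against 1.66 (1.54 to 1.80) in cluster 18, 2.39 (1.83 to 3.099) in cluster 19 and 4.45 (4.03 to 4.92) in cluster 21. Adamts17 stood at 0.261 (0.161 to 0.408) in mesothelial cells and 1.75 (1.57 to 1.96) in cluster 19. S100a4 stood at 1.95 (1.39 to 2.76) in mesothelial cells and 0.458 (0.283 to 0.707) in cluster 19. Mt2 stood at 1.90 (1.64 to 2.19) in mesothelial cells and 0.619 (0.481 to 0.791) in cluster 18. With 1 library per condition these differences were not tested.

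Among barcodes that the authors left out of their clusters, 3 in the 5E1 library and 0 in the IgG library had a UMI of at least 3 of the 4 mesothelial markers.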

How the results depend on the processing

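The count of genes past 2-fold was 57 higher and 86 lower. Thinning to 1000 UMIs gave 5 and 13, equal weight per cell 87 and 143, a minimum of 20 UMIs 213 and 283, and a minimum of 200 UMIs 11 and 16. With only the 37 5E1 cells that had Xist and no Y-linked UMI, 229 genes were lower. Ptch1 and Hhip were lower under every alternative run, with log2 ratios from -0.24 to -1.95 for Ptch1 and from -0.94 to -1.56 for Hhip. The smallest came from thinning, at -0.24 for Ptch1 and -0.94 for Hhip. Gli1 was then left with a UMI in 1 of 169 IgG and 0 of 113 5E1 cells. Its thinned value of -1.004 is set by the 0.5 UMI added and shows no direction. Thinned sums hold few UMIs, and there the sign turned for Aifm2 (-0.64), Ackr3 (-0.50), H2-Q1 (0.19), Foxf1 (0.050), Tagln (0.37), Igf1 (0.18), Tgfb2 (0.29) and Ltbp2 (0.050), and for the medians of epithelial to mesenchymal transition (0.0049) and MHC class I (0.025). With those 37 5E1 cells only it turned for Tppp3 (-0.48), G2 and M phase (-1.52) and heat shock (0.052). The basement membrane median was 0.0061 in marker-positive cells and 0.035 at 20 UMIs, and at 200 UMIs BMP was at 0.0098 and interferon response at 0.14. The cause was not tested. The ratio of the cell share ran from 0.955 to 1.05. No paired analysis was possible because each condition has 1 library. Genes with few UMIs and differences between pups cannot be resolved at this depth and design.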
